A study of Mus musculus with 30 samples.

Results

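CT-26 is a carcinoma line of the mouse colon that forms tumors under the skin of immunocompetent BALB/c mice. Gene expression in 4 CT-26 tumors harvested at about 100 mm3 was compared with that in 3 libraries of CT-26 cells in culture, across all genes and in the direction tumor over culture. The 7 libraries were picked by the model, tissue and size class given in their labels, out of 30 libraries in 8 groups that cover cultures and tumors of CT-26 and of a second line, Colon 26. The tumors grew from cells implanted in the right flank of female mice and measured 103.33, 106.18, 136.03 and 145.86 mm3, and they are called tumors 1 to 4 in that order. The cultures were CT-26 cells in vitro, and the labels name no genetic change. No label names an antibody for any of these libraries, so the tumors were taken as untreated, and the sources used here give no age for the mice. The libraries were made from poly-A RNA, and Colon 26 cultures (n = 3) and Colon 26 tumors of the same size class (n = 4) served as a second, separate pair of groups.

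A subcutaneous tumor is a mixture of cancer cells and host cells, since blood vessels, fibroblasts, macrophages and lymphocytes enter it as it grows. Transcripts that cancer cells do not make can therefore appear in a tumor library and be missing from a culture library of the same line. Cancer cells in a tumor also meet signals that a culture dish lacks, among them interferon gamma from lymphocytes, and they share oxygen and nutrients through a poor vasculature. In bulk RNA a larger number of cells of a type and more RNA per cell cannot be told apart.

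The deposited estimated counts summed to between 21384730 and 27856380 in the cultures and between 24844108 and 30584263 in the tumors. Between 20128 and 20437 genes had a count in a culture and between 21204 and 22236 in a tumor. Replicates were close in the cultures and more spread in the tumors: the median SD of log2 CPM (counts scaled to a common normalized library size) over genes of at least 10 CPM was 0.0417 for the cultures and 0.142 for the tumors. No label names a batch, and the library numbers of the cultures do not follow on from those of the tumors, so a batch and the tissue cannot be told apart. Nothing in the labels says that the 3 cultures were grown separately, and p-values then measure the spread between these libraries, which may be technical. As a check of the labelled tissue, the defining markers of colon epithelium Cdx1, Cdx2, Vil1, Muc2 and Epcam were all below the expression filter in this comparison, and only 6 of 14 genes of that list could be tested.

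More genes were higher in tumors than lower, and many of the higher ones were silent or nearly silent in culture. A gene was called differentially expressed (DE) at an adjusted p of at most 0.1 and a log2 fold change of at least 1 in size. Of 15370 genes tested with edgeR's quasi-likelihood test, 3406 were DE and higher in tumors (22.2% of genes tested) and 1546 were DE and lower (10.1%). The median log2 fold change over all tested genes was 0.06. Of the higher genes 1070 had at most 3 counts in every culture, and 305 of these had no count in any culture. In the whole table, 36600 genes had at most 3 counts in every culture, whether DE, tested or neither. These 36600 genes took 0.0226% ± 0.0020 of all counts in the cultures (SD, n = 3) and 0.735% ± 0.189 in the tumors (SD, n = 4). The range over the tumors was 0.570% to 1.003%. Since these genes were picked for a low count in culture, their rise is fixed in part by the choice. Among the 9129 genes with at least 10 CPM in culture the balance was different, with 627 higher and 779 lower. This balance is also fixed in part by the choice, since these genes were picked for their level in culture. The 2 groups of libraries did not overlap in 3318 of the higher and 1516 of the lower genes. DE genes were picked for a difference between these groups, so this separation follows in part from the call. Of all 15370 tested genes 11205 had an unadjusted p under 0.05 in the edgeR test, and their share without overlap is not given.

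**Figure D1:**
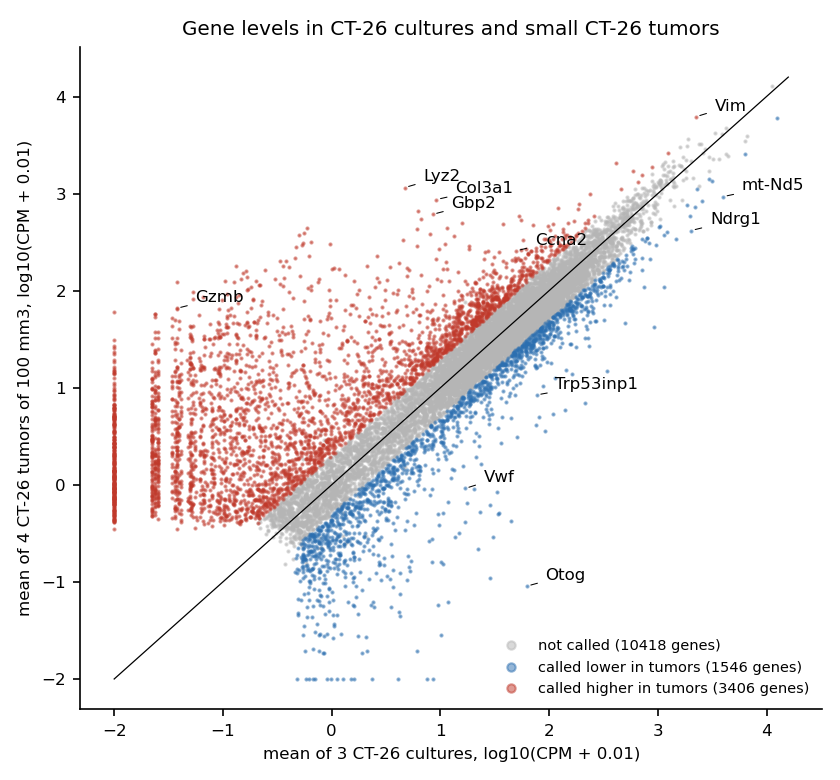
Mean CPM of each tested gene in the 3 CT-26 cultures (x axis) and in the 4 CT-26 tumors of 100 mm3 (y axis), both as log10(CPM + 0.01), with DE genes colored by direction. The 3406 higher genes spread far above the diagonal at low culture values, while the 1546 lower genes lie nearer to it over the whole range.

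To describe these genes by role, 46 lists of cell type markers and pathway genes were counted. In the plot of call shares and medians by list, the lists of leukocytes, endothelial cells and pericytes had medians well above 0, those of skin and nerve were nearer to 0, and lists of housekeeping processes such as oxidative phosphorylation or ribosome biogenesis were centered near 0. In each account below, the shares of 22.2% and 10.1% and the median of 0.06 are the values to read a list against. A gene near 0 in culture passes the filter on low counts only where it is high in tumors, so for lists of host cells the count among tested members is a description. Where fewer members were tested than listed, both numbers are given.

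**Figure D2:**
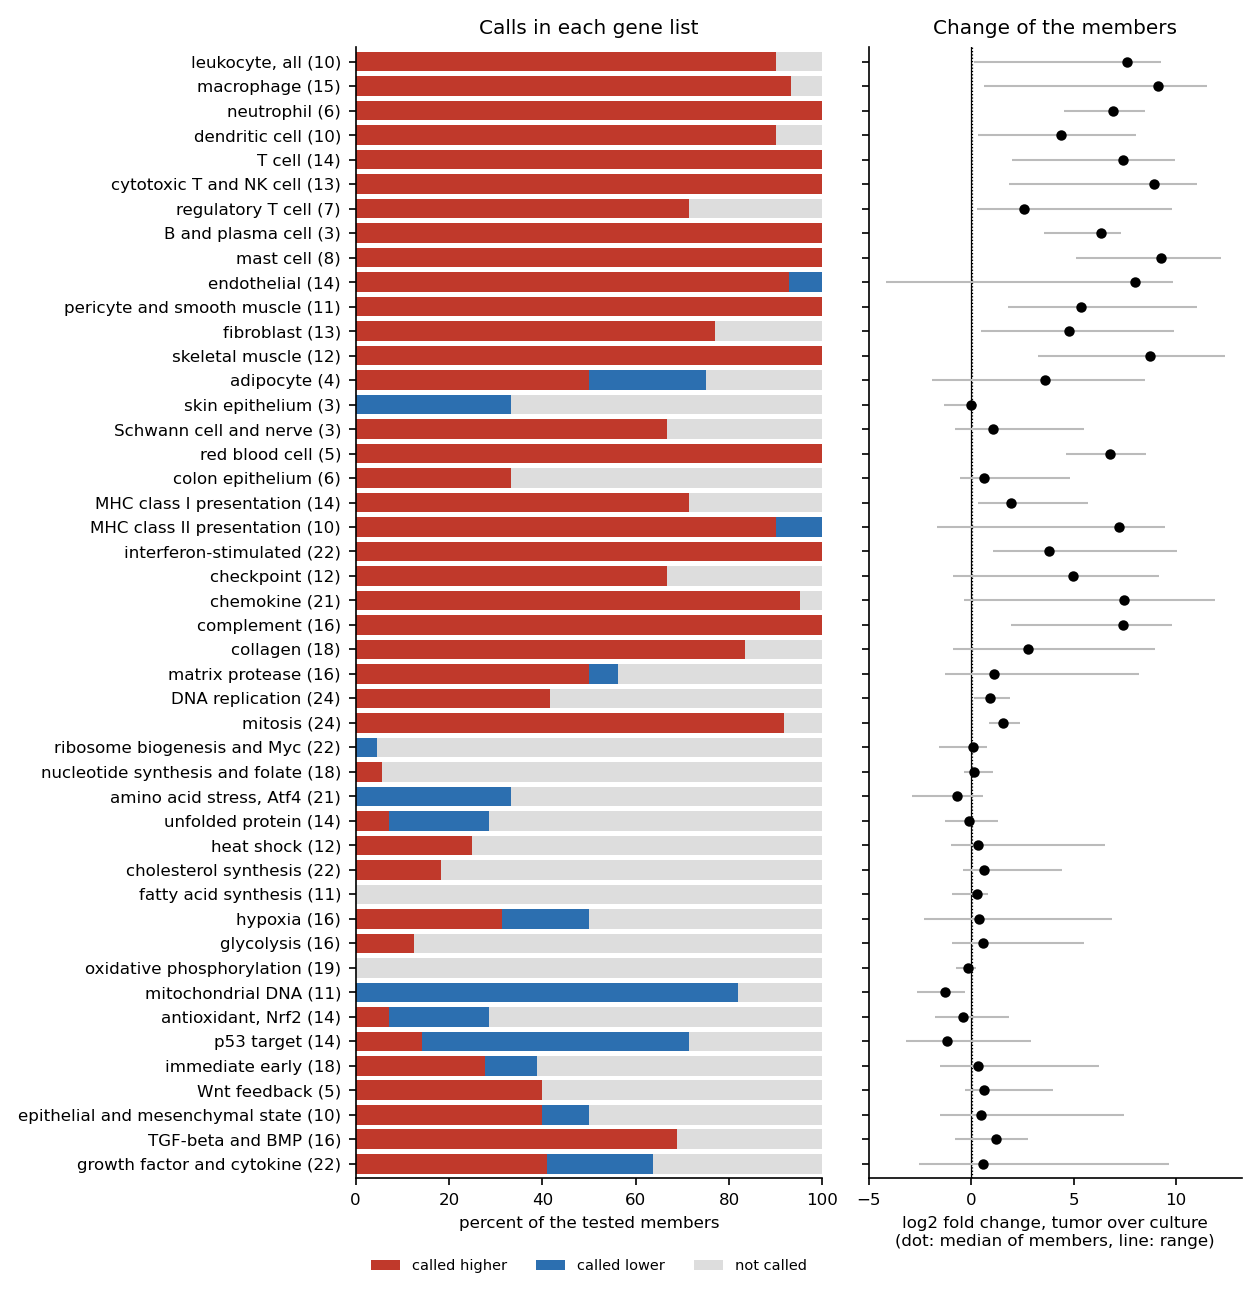
Share of tested members that were DE in either direction (left) and the median and range of their log2 fold changes, tumor over culture (right), for 46 gene lists. Macrophage genes have a median of 9.10, interferon-stimulated genes 3.79, mitosis genes 1.57 and mitochondrial DNA genes -1.29.

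Macrophage transcripts were abundant in every tumor. Of 15 macrophage genes 14 were DE and higher in tumors, with a median log2 fold change of 9.10. Lyz2, which encodes the lysozyme of macrophages and neutrophils, had 4.18, 4.79 and 5.06 CPM in the 3 cultures and 800.2, 1621, 1166 and 1026 CPM in tumors 1 to 4. Every tumor exceeded every culture by more than 100-fold, and the log2 fold change was 7.94 ± 0.31 (SE, edgeR adjusted p = 6.9e-07). Per length, Lyz2 had 3.55 ± 0.335 FPKM in the cultures and 874 ± 254 FPKM in the tumors (SD, n = 3 and 4). Csf1r, the receptor for the growth factor that keeps macrophages alive, had 0.465, 0.254 and 0.622 CPM in the cultures and 128, 265, 235 and 237 CPM in the tumors, with tumor 1 lower than the other 3 tumors. C1qa, a subunit of the complement component C1q that tissue macrophages secrete, had 0.325, 0.472 and 0.663 CPM in the cultures and 340.2, 486, 313 and 341 CPM in the tumors, with a log2 fold change of 9.54 ± 0.28 (edgeR adjusted p = 2.6e-07). Mrc1, the mannose receptor, went from at most 0.418 CPM in culture to 199, 151, 176 and 283 CPM in the tumors, and was lowest in tumor 2. Cd68 was the member that was not DE: CT-26 cells in culture already had 59.1, 64.9 and 59 CPM of this lysosomal glycoprotein, against 96.8, 135, 64.1 and 81.7 CPM in the tumors. Of 10 genes of a broader leukocyte list 9 were DE and higher. Ptprc, which encodes the common leukocyte antigen CD45, had 0.093, 0.181 and 0.207 CPM in the cultures and 70.3, 190.1, 83.2 and 70.4 CPM in the tumors, and tumor 2 stood apart from the others.

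Lymphocyte transcripts were much scarcer than macrophage transcripts, yet all 14 T cell genes and all 13 genes of cytotoxic T and NK cells were DE and higher. Their median log2 fold changes were 7.39 and 8.90, or 5.35 and 5.08 with genes of 0 counts in culture set to the bound that 3 counts per library allow. Gzmb, the serine protease that killer cells deliver to their targets, had 0.0465, 0.0363 and 0 CPM in the cultures and 68.3, 155, 20.8 and 18.9 CPM in tumors 1 to 4. The ratio of the means was 2469.6-fold (exact 95% interval 683 to 20396) (edgeR adjusted p = 3.4e-04), and the interval covers counting error only. Tumors 1 and 2 had several times the level of tumors 3 and 4. Perforin, the pore-forming partner encoded by Prf1, followed the same order with 35.4, 73.1, 9.19 and 8.43 CPM in the tumors and at most 0.124 CPM in the cultures. Cd8a, the coreceptor of cytotoxic T cells, ranged widely over the tumors, with 5.3, 23.5, 2.81 and 1.16 CPM, while the helper cell coreceptor Cd4 varied little at 3.33, 2.81, 2.77 and 2.42 CPM. Ncr1, which marks NK cells, had no count in any culture and 6.87, 10.4, 3.35 and 2.42 CPM in the tumors, so it was at least 46.4-fold higher. Ifng, the gene of interferon gamma, also had no count in culture and was low in every tumor at 1.85, 4.68, 1.19 and 0.614 CPM, again highest in tumor 2. Of 7 regulatory T cell genes 5 were DE and higher (2 with limma on log2(FPKM + 1), an alternative test on the deposited FPKM values), among them Foxp3, their defining transcription factor, with 0.418, 0.218 and 0.29 CPM in the cultures and 2.47, 1.4, 1.54 and 1.84 CPM in the tumors. Of 10 B and plasma cell genes 3 had enough counts to be tested, and all of these were DE and higher. Ighm, the heavy chain of immunoglobulin M, had 0.232, 0.29 and 0.29 CPM in the cultures and 11.8, 41.1, 20.9 and 16.3 CPM in the tumors.

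Mast cell transcripts were found in every tumor. All 8 mast cell genes were DE and higher, with a median log2 fold change of 9.28 (7.75 with bounds). Cpa3, the carboxypeptidase stored in mast cell granules, had no count in any culture and 23.5, 36.7, 17.7 and 12.1 CPM in tumors 1 to 4, and so was at least 181-fold higher. The tryptase gene Tpsb2 had 0.0465, 0 and 0 CPM in the cultures and 39.8, 53.5, 23 and 14.9 CPM in the tumors, the chymase gene Cma1 0, 0.0363 and 0.0415 CPM and 30.8, 39, 15.7 and 14.4 CPM. All of these granule genes were highest in tumor 2 and lowest in tumor 4. Neutrophil genes were sparse by comparison. Only 6 of 10 could be tested, and all of them were DE and higher. Among these, Csf3r, the receptor for granulocyte colony-stimulating factor, reached 8.47, 20.7, 8.77 and 8.22 CPM in the tumors. Dendritic cell genes were higher in 9 of 10, or in 3 with limma on log2(FPKM + 1), and the one that was not called was Fscn1, an actin-bundling protein that the cancer cells expressed at 193, 199 and 195 CPM in culture. The called ones were scarce: Batf3, a transcription factor of cross-presenting dendritic cells, had no count in culture and 0.863, 1.54, 1.19 and 1.36 CPM in the tumors.

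Endothelial genes rose as a group, with 13 of 14 DE and higher and a median log2 fold change of 8.01. Pecam1, the adhesion molecule CD31, had 0.139, 0.0363 and 0.166 CPM in the cultures and 24.3, 36.1, 72.4 and 55 CPM in tumors 1 to 4, and Cdh5, the cadherin of endothelial junctions, had 0.0465, 0.145 and 0.0415 CPM and 14.5, 21, 71.2 and 52.4 CPM. Both were lowest in tumor 1 and highest in tumor 3, with tumors 3 and 4 above tumors 1 and 2. Kdr, the main receptor for vascular endothelial growth factor, had 12.4, 19.3, 31.4 and 28.4 CPM in the tumors against at most 0.218 CPM in the cultures. Vwf, which encodes the clotting factor that endothelial cells store, went the other way. CT-26 cells in culture expressed it at 16.9, 17.6 and 15.9 CPM and the tumors at 0.452, 0.802, 0.462 and 1.91 CPM, a log2 fold change of -4.18 ± 0.43 (edgeR adjusted p = 5.2e-05). Of 11 tested pericyte and smooth muscle genes (12 listed) 11 were DE and higher, or 9 without tumor 4 and 6 with limma on log2(FPKM + 1). Rgs5, a regulator of G protein signaling that marks pericytes, rose from 0.0465, 0.109 and 0.124 CPM in the cultures to 12.4, 20.03, 62.5 and 46.7 CPM in the tumors, in the order of the endothelial genes.

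Many fibroblast and matrix genes were also higher. Of 13 tested fibroblast genes (14 listed) 10 and of 18 tested collagen genes (19 listed) 15 were DE and higher, with medians of 4.76 and 2.77. Without tumor 4 the collagen count was 13. Col3a1, the fibrillar collagen of soft tissue, had 8.55, 9.43 and 9.62 CPM in the cultures and 611, 720.0, 945 and 1199 CPM in tumors 1 to 4. The groups were far apart, with a log2 fold change of 6.56 ± 0.29 (edgeR adjusted p = 9.1e-07). Per length it had 1.65 ± 0.0978 FPKM in the cultures and 157 ± 50.1 FPKM in the tumors (SD). Col1a1, a chain of type I collagen, rose from 53.2, 54 and 52.8 CPM to 533, 507, 577 and 745 CPM. Its partner chain Col1a2 was not DE, and was expressed at 1085, 1132 and 1089 CPM in culture against 1770.4, 1969, 1889 and 2053 CPM in the tumors, a log2 fold change of 0.80 ± 0.07. The same contrast between a gene near 0 in culture and a gene already expressed was seen in other members. The proteoglycan gene Dcn went from 3.11, 3.81 and 3.36 CPM to 89.7, 206, 193 and 213 CPM, while Pdgfra, a receptor of fibroblasts, had 20.3, 21.4 and 21.2 CPM in culture and a log2 fold change of 0.91 ± 0.14, short of the fold threshold. Of 16 tested genes of matrix proteases and their inhibitors (17 listed) 8 were higher and 1 lower. Mmp3, the protease stromelysin, rose from 0.604, 0.508 and 0.539 CPM to 37, 77.3, 77 and 121 CPM, the inhibitor Timp3 from 2.09, 2.07 and 1.87 CPM to 48.8, 54, 54.4 and 36.8 CPM, and Mmp11 fell from 45.4, 43.2 and 43.6 CPM to 17.1, 16.6, 22.9 and 16.2 CPM.

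Other host tissue was uneven between tumors. All 12 skeletal muscle genes were DE and higher, but this depended on single tumors. Acta1, skeletal muscle actin, had 0.186, 0.109 and 0 CPM in the cultures and 0.329, 75.8, 9.35 and 124 CPM in tumors 1 to 4, so tumor 1 was near the cultures and tumor 4 more than 100 CPM above them. Without tumor 2 or without tumor 3 only 4 of the 12 were called and without tumor 4 only 2, and without tumor 4 the median went from 8.72 to 3.81. Genes that muscle shares with other lists followed it: Des, counted among the smooth muscle genes, had 6.51, 5.84 and 6.22 CPM in the cultures and 1.93, 55.8, 8.12 and 35.7 CPM in the tumors, and Car3, counted among the adipocyte genes, 0.37, 14.6, 3.35 and 27.3 CPM in the tumors. The call on Des was lost without any 1 of the 3 cultures and without tumor 2 or tumor 4. The part that muscle in tumors 2 and 4 had in other results was not tested. Of 7 red blood cell genes 5 were tested and all of these were higher, and the hemoglobin gene Hbb-bs had 78.2, 14.1, 32.6 and 132 CPM in the tumors against at most 0.415 CPM in the cultures. Adipocyte genes were sparse, since 4 of 10 adipocyte genes passed the expression filter, with 2 higher and 1 lower. Among the higher ones was the fatty acid carrier Fabp4, which endothelial cells and macrophages also make, at 19, 17.5, 41.3 and 51.8 CPM in the tumors. Of 10 skin genes 3 were tested, with 1 lower, and of 8 nerve genes 3, with 2 higher. The keratins of skin were below the filter except Krt10, which had 3.16, 3.77 and 3.69 CPM in the cultures and 3.33, 3.14, 4.12 and 3.51 CPM in the tumors. Of the colon epithelium list Krt20, an intestinal keratin, was expressed in culture at 25.3, 25.1 and 24 CPM and rose to 163, 131, 130.0 and 133 CPM.

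Interferon-stimulated genes rose strongly, and many of them were already expressed in culture. Interferons act in part through interferon regulatory factors, which bind a short element in the promoters of their targets called the interferon-stimulated response element. Promoter sequences of 250 bases before and 50 bases after the start site, from RefSeq on GRCm38.p6, were searched on both strands for GAAANNGAAA. Of the 22 interferon-stimulated genes in the list 19 had a promoter in the table, with 23 promoters in all. The element was in 13 of the 23, against 3.44% of all 32851 promoters. A match is a description of the letters and does not show that a factor binds. The stretches below, of 3 list genes and of Gbp7 and Igtp, are of genes described next that hold the element. Genes without a match are not shown, among them Cxcl9, a list gene that is also described next. In the stretches the capitals mark the element, which reads TTTCNNTTTC where it lies on the other strand. They are given 5′ to 3′ on the strand of the gene.
Gbp2, chr3:142620574-142620643, plus strand: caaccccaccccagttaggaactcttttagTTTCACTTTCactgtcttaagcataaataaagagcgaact
Gbp7, chr3:142530253-142530322, plus strand: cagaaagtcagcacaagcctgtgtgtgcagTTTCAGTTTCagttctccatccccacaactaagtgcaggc
Igtp, chr11:58199492-58199555, plus strand: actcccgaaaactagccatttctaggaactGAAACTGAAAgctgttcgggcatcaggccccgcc
Isg15, chr4:156200845-156200926, minus strand: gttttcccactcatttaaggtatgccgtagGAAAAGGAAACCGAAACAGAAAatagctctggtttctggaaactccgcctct
Ifit3, chr19:34583343-34583446, plus strand: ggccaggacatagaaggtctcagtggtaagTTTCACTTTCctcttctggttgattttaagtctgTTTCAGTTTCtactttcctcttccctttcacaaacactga
The element ended 50 bases before the start site in Gbp2, 44 in Gbp7 and 25 in Igtp. In Isg15 there were 3 overlapping copies between 78 and 57 bases before the start, and in Ifit3 there were 2 copies.

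All 22 interferon-stimulated genes were DE and higher in the tumors, with a median log2 fold change of 3.79. Gbp2, a guanylate-binding protein that attacks intracellular pathogens, had 9.06, 7.73 and 8.67 CPM in the cultures and 603, 1248, 395 and 199 CPM in tumors 1 to 4. All tumors were above all cultures, tumor 2 had more than 6 times the level of tumor 4, and the log2 fold change was 6.17 ± 0.69 (edgeR adjusted p = 8.3e-05). Gbp7, of the same family, and the interferon-inducible GTPase Igtp are not in the list and were named for their large rises among genes of at least 10 CPM in culture. Gbp7 rose from 13.8, 13 and 13.4 CPM to 360.1, 752, 231 and 136 CPM and Igtp from 11.4, 9.58 and 12.2 CPM to 341, 562, 193 and 114 CPM. Irf7, which amplifies the type I response, rose from 19, 17.2 and 18.9 CPM to 266, 409, 185 and 210.1 CPM. Isg15, a ubiquitin-like modifier, rose from 30.2, 28.4 and 31.7 CPM to 120.0, 170.5, 72.4 and 79.7 CPM and Ifit3, which binds foreign RNA, from 3.39, 3.59 and 4.02 CPM to 89.3, 159, 62.9 and 63.2 CPM. The smallest change was that of Oas1a, an RNA sensor, at 1.07 ± 0.26, and this call was lost without tumor 2. Cxcl9, the chemokine that draws activated T cells and is a hallmark of interferon gamma, was almost silent in culture at 0.186, 0.0726 and 0.166 CPM and reached 107, 299, 132 and 67 CPM in the tumors. In each gene with values here tumor 2 had the highest value.

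Most genes of antigen presentation rose as well. Of 14 genes of the MHC class I pathway 10 were DE and higher (median 1.92). The subunits that convert the proteasome into the immunoproteasome rose strongly: Psmb8 had 11.8, 10.4 and 11.2 CPM in the cultures and 227, 326, 129 and 107 CPM in the tumors, and Psmb9 5.02, 5.44 and 4.4 CPM and 177, 240.0, 84.6 and 65.5 CPM. Tapbp, which loads peptides onto class I molecules, rose from 55.6, 54.8 and 56.2 CPM to 553, 844, 401 and 354 CPM, and the heavy chain H2-K1 from 186, 187 and 188 CPM to 931, 1058, 587 and 559 CPM (log2 fold change 2.07 ± 0.24, edgeR adjusted p = 9.4e-05). H2-D1, the other classical heavy chain, had a smaller change of 1.08 ± 0.24, which fell below the fold threshold without tumor 2. B2m, the light chain, was already at 1441, 1376 and 1316 CPM in culture and was not DE, at 2307, 3101, 1717 and 1439 CPM in the tumors. In the MHC class II pathway 9 of 10 genes were higher (median 7.20). H2-Ab1, a chain of the class II molecule, had 0.511, 0.544 and 0.456 CPM in the cultures and 71.9, 284, 134 and 70.9 CPM in the tumors, and the invariant chain Cd74 rose from 15.9, 15.9 and 15.9 CPM to 289, 1036, 436 and 222 CPM. Cd80, a costimulatory ligand that CT-26 cells expressed in culture, was the exception and fell from 67, 67 and 66.1 CPM to 22.6, 18.4, 20.5 and 21.7 CPM. Cd74 was detected in the cultures, and a rise in cancer cells and a rise from host cells cannot be told apart here.

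Chemokine and complement genes were nearly uniform in direction. Of 21 tested chemokine genes (22 listed) 20 were DE and higher (median 7.43), and Cxcl1, which attracts neutrophils, was the one that was not, with 7.07, 5.84 and 6.55 CPM in the cultures and 8.68, 5.25, 3.69 and 2.97 CPM in the tumors. Ccl2, the main attractant of monocytes, had 0.0465, 0.0726 and 0.166 CPM in the cultures and 172, 170.2, 64.6 and 90.1 CPM in the tumors, with tumors 1 and 2 above tumors 3 and 4. Ccl8, which acts on monocytes and mast cells, had a ratio of means of 4488-fold (exact 95% interval 1242 to 37061) and 173, 183, 49.8 and 83.7 CPM in the tumors. All 16 complement genes were higher (median 7.39). C3, the central component, rose from 2.79, 3.3 and 3.48 CPM to 129.6, 239.9, 80.4 and 60.0 CPM, and C1s1, a protease of the first step that the cancer cells expressed in culture, from 70.7, 66.5 and 66.4 CPM to 219.5, 497, 181 and 129.7 CPM. Of 12 checkpoint genes 8 were higher. Cd274, which encodes PD-L1, had 15.2, 15.5 and 15.5 CPM in the cultures and 65.6, 141, 42.7 and 18.6 CPM in tumors 1 to 4, a spread of more than 7-fold between tumors, and its log2 fold change was 2.12 ± 0.60 (edgeR adjusted p = 0.013). Vsir, the inhibitory ligand VISTA of myeloid cells, rose from 1.07, 0.835 and 0.871 CPM to 34.8, 70.3, 64 and 52 CPM. Havcr2, the receptor TIM-3, had 15.4, 17.3 and 15.7 CPM in culture and 11.3, 32.8, 11.4 and 10.5 CPM in the tumors, and was not DE.

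The tumors differed among themselves more than the cultures did, and lists moved together across them. Each list was summed up by a score, the mean log2 CPM of its members with a prior count of 2, and the scores of tumors 1 to 4 are given in the order of their volume. The cytotoxic score was 3.07, 3.95, 1.87 and 1.80, the T cell score 1.71, 2.97, 0.87 and 0.74, and the score of interferon-stimulated genes 6.74, 7.55, 6.27 and 6.02. Tumor 2 was highest in all of these, and tumors 1 and 2, the smaller ones, were above tumors 3 and 4. The endothelial score was 2.85, 3.02, 4.19 and 4.29 and the pericyte score 1.61, 2.37, 2.88 and 3.13, both lower in tumors 1 and 2. Collagen genes had 6.24, 6.36, 6.71 and 6.87, while macrophage genes had 6.58, 7.21, 6.71 and 6.87 and showed no such order. The hypoxia score was 6.44, 6.07, 5.67 and 5.08 and the glycolysis score 8.20, 8.09, 7.64 and 7.40, both falling from the smallest to the largest tumor. With 4 tumors these orders are values only, and no relation to volume was tested.

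**Figure D3:**
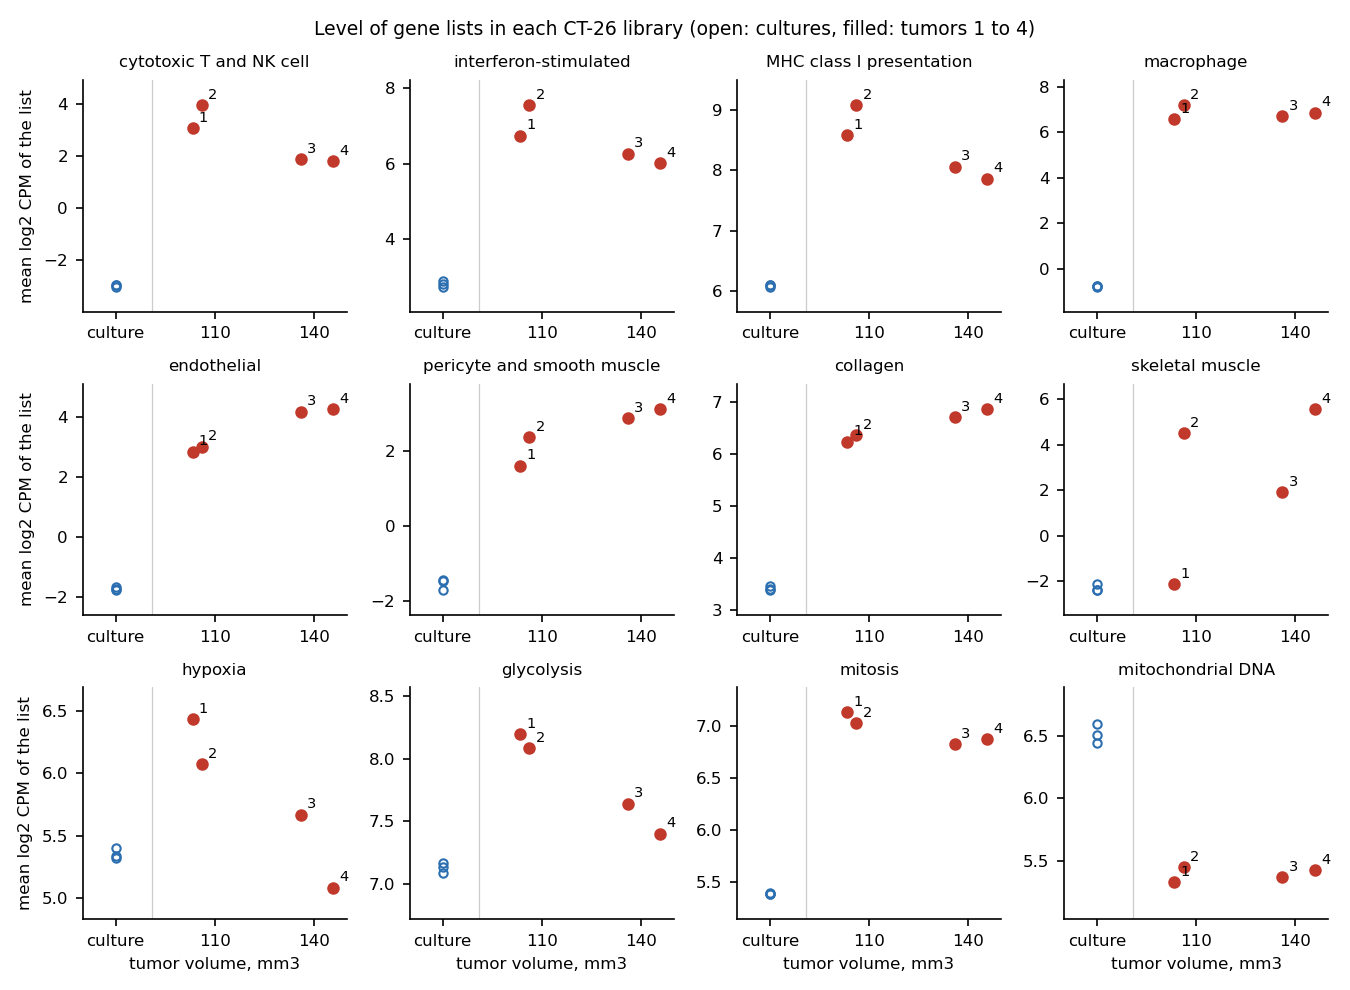
Scores of 12 gene lists (mean log2 CPM of the members, prior count 2) in the 3 CT-26 cultures and in the 4 CT-26 tumors ordered by volume in mm3. Cytotoxic and interferon scores peak in tumor 2 (106.18 mm3), endothelial scores are highest in tumor 4 (145.86 mm3), and mitosis scores lie between 6.82 and 7.13 in the tumors, all above the cultures.

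Most mitosis genes and some DNA replication genes rose in the tumors, by smaller amounts than the host genes. Of 24 mitosis genes 22 were DE and higher, with a median log2 fold change of 1.57. Ccna2, the cyclin that drives cells through S phase into mitosis, had 50.4, 48.6 and 50.3 CPM in the cultures and 279, 257, 237 and 257 CPM in tumors 1 to 4. All tumors had more than 4 times the level of all cultures (log2 fold change 2.37 ± 0.07, edgeR adjusted p = 2.7e-07). Cdc20, an activator of the anaphase-promoting complex, rose from 30.4, 32.9 and 32.4 CPM to 172, 145, 133 and 154 CPM, and Mki67, the proliferation marker Ki-67, from 145, 150.3 and 153 CPM to 525, 563, 470.3 and 439 CPM. Top2a, which untangles chromosomes, rose from 166, 173 and 169 CPM to 544, 604, 458 and 467 CPM. The members that were not called, Bub1b and Tpx2, had log2 fold changes of 0.86 ± 0.06 and 0.85 ± 0.08, short of the fold threshold. DNA replication genes moved less, with 10 of 24 DE and higher and a median of 0.92. Uhrf1, which is needed for the copying of DNA methylation onto new strands, rose from 66.4, 69.7 and 68.7 CPM to 255, 264, 249.96 and 259 CPM (log2 fold change 1.91 ± 0.05), and the helicase subunit Mcm5 from 54.1, 55.1 and 53.9 CPM to 209, 215, 178 and 217 CPM. Another subunit of the same helicase, Mcm2, had 173, 180.4 and 178 CPM in culture and 204, 192, 175 and 197 CPM in the tumors and was not DE. Genes of ribosome biogenesis and Myc were centered near 0, with a median of 0.08 over 22 genes (-0.04 without tumor 4). The one DE member was Odc1, the first enzyme of polyamine synthesis, which fell from 1179, 1245 and 1215 CPM to 398, 385, 388 and 450.1 CPM. Of 18 genes of nucleotide and folate metabolism only Impdh2, of guanine nucleotide synthesis, was DE and higher (1.05 ± 0.07), a call that was lost without culture 1 and also without tumor 4.

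Part of the amino acid stress program was lower in the tumors. When amino acids run short or the endoplasmic reticulum is stressed, cells make more of the transcription factor Atf4, which turns on amino acid transporters, synthesis enzymes and the death-associated factors Ddit3, Trib3 and Chac1. Of 21 genes in the list 7 were DE and lower, with a median log2 fold change of -0.71. The Atf4 element TGATGNAA was found, on either strand, in 7 of the 21 promoters of list genes, against 3.97% of all promoters. The stretches of Slc7a11 and Chac1, which are among the genes that fell, are shown with the element in capitals, reading TTNCATCA on the other strand.
Slc7a11, chr3:50443623-50443709, minus strand: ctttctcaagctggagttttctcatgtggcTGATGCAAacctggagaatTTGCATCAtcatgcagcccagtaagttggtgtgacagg
Chac1, chr2:119351019-119351086, plus strand: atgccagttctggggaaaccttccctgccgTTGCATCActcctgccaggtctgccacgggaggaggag
Slc7a11 holds 2 copies that face each other, from 66 to 40 bases before the start site, and Chac1 holds 1 copy ending 186 bases before it.

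Ddit3, the death-associated factor CHOP, had 317, 322 and 324 CPM in the cultures and 50.9, 47.8, 59.7 and 41 CPM in tumors 1 to 4. No tumor came near the lowest culture, and Ddit3 fell by 2.69 ± 0.12 on the log2 scale (SE, edgeR adjusted p = 8.4e-07). Chac1, which degrades glutathione, fell from 126, 126 and 127 CPM to 21.8, 20.9, 33.3 and 30.3 CPM, and Trib3, a feedback inhibitor of the pathway, from 249, 249 and 243 CPM to 56.6, 51, 77.9 and 59.3 CPM. Slc7a11, the cystine importer, fell from 53.9, 57.8 and 55.2 CPM to 17.9, 16.1, 16.1 and 14.3 CPM (log2 fold change -1.79 ± 0.08, edgeR adjusted p = 1.1e-06). Atf4 itself had 723, 724 and 708 CPM in culture and 581, 435, 489 and 497 CPM in the tumors and missed the fold threshold at -0.52 ± 0.09. The serine synthesis enzyme Psat1 had 342, 349 and 339 CPM and 385, 325, 317 and 362 CPM and was not DE. In the neighbouring unfolded protein list 3 of 14 genes were lower and 1 was higher. Hspa5, the main chaperone of the endoplasmic reticulum, had 2239, 2328 and 2242 CPM in culture and 1008, 1217, 1102 and 1148 CPM in the tumors. Its change of -1.02 ± 0.07 was just past the threshold and was lost without tumor 1. Sel1l, of the degradation machinery for misfolded proteins, fell from 245, 269 and 257 CPM to 94.2, 112, 111 and 109 CPM.

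Targets of p53, the tumor suppressor that halts the cycle after DNA damage, were lower in 8 and higher in 2 of 14 tested genes out of 16 listed (median -1.19). Trp53inp1, a nuclear protein that promotes cell death, had 77.6, 76.2 and 77.2 CPM in the cultures and 6.21, 9.96, 9.85 and 7.71 CPM in the tumors. The tumors lay far below the cultures, with a log2 fold change of -3.19 ± 0.15 (edgeR adjusted p = 1.2e-06). Mdm2, the ubiquitin ligase that limits p53, fell from 372, 358 and 364 CPM to 132, 115, 96.1 and 96.3 CPM and the kinase gene Plk2 from 355, 368 and 360.5 CPM to 96.3, 77.5, 97.7 and 101 CPM. Cdkn1a, the cycle inhibitor p21, had 379, 375 and 384 CPM in culture and 236, 173, 169 and 204 CPM in the tumors and just missed the fold threshold at -0.96 ± 0.11. The members that rose were Sesn1, a stress-induced regulator of growth signaling, and the death receptor gene Fas, which lymphocytes also express. Fas had 0.976, 0.798 and 0.539 CPM in culture and 5.76, 9.26, 4.65 and 3.27 CPM in the tumors, highest in tumor 2.

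Most transcripts of the mitochondrial genome were lower, whereas nuclear genes of the respiratory complexes were seldom far from their culture level. Of 11 tested mitochondrial DNA genes (13 listed) 9 were DE and lower (median -1.29). mt-Co1, a catalytic subunit of complex IV and among the most abundant transcripts of all, had 12389.6, 13071 and 12011 CPM in the cultures and 5768, 6369, 6293 and 5529.5 CPM in the tumors (log2 fold change -1.06 ± 0.08, edgeR adjusted p = 7.4e-06). mt-Nd5, a subunit of complex I, fell further, from 3842, 4217 and 3886 CPM to 668, 1004, 1095 and 953 CPM, and mt-Nd2 from 2508, 2608 and 2468 CPM to 760.0, 859.8, 841 and 863 CPM. Both groups were tight and well apart in each of these genes. mt-Co2 and mt-Atp6 were below 2 CPM in every library. How the authors' counting split reads between mitochondrial genes and near-identical nuclear copies such as Gm10222 is not known, so values of single mitochondrial genes are uncertain. Gm10222 had 709, 713 and 708 CPM in culture and 117, 187, 177 and 177 CPM in the tumors. Of 19 nuclear genes of oxidative phosphorylation 0 were DE by edgeR and 0 by DESeq2, 13 had an unadjusted p under 0.05, and their median was -0.17. The member with the largest change, Ndufs1 of complex I, had 147, 153 and 144 CPM in culture and 94, 89.9, 85.1 and 82 CPM in the tumors.

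Genes regulated by hypoxia did not move as one. Of 16 genes 5 were higher and 3 lower (median 0.36, or 0.06 without tumor 1 and 0.56 without tumor 4), and 6 were called without tumor 1. Vegfa, the growth factor for blood vessels, was strongly expressed in culture at 463, 442 and 457 CPM and fell to 167, 146, 139.8 and 88.5 CPM in tumors 1 to 4 (log2 fold change -1.75 ± 0.18, edgeR adjusted p = 5.8e-05). Ndrg1, a stress protein, was among the most abundant transcripts in culture at 1966, 2073 and 2041 CPM and had 681, 512, 307 and 166 CPM in the tumors, a 4-fold spread between tumors. Ero1l, which oxidizes protein thiols, went from 755, 769.5 and 768 CPM to 489.9, 384, 293 and 145 CPM, a fall of 1.22 in log2 units that was not called without tumor 4. Car9, the surface carbonic anhydrase that is often used as a stain for hypoxia, rose from 9.95, 7.73 and 9.21 CPM to 36.4, 19.3, 17.7 and 7.91 CPM in tumors 1 to 4, and tumor 4 lay within the range of the cultures. Its call was lost without tumor 1 or without culture 2. Bnip3, a mitophagy receptor, ranged from 246, 162, 90.7 and 37.5 CPM in the tumors around culture values of 109, 109.9 and 108 CPM, and was not DE. In all 5 of these genes the values fell in order of volume, from tumor 1 to tumor 4. Of 16 glycolysis genes 2 were higher (median 0.55), or 4 without tumor 3 or without tumor 4 and 1 with limma on log2(FPKM + 1), and Ldha, which makes lactate, had 1169, 1179 and 1171 CPM in culture and 3129, 2233, 1681 and 1391 CPM in the tumors without passing the fold threshold (0.85 ± 0.25).

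Few lipid and antioxidant genes were called. Of 22 cholesterol genes 4 were higher (median 0.65), or 2 without tumor 3 or without tumor 4 and 1 with limma on log2(FPKM + 1), and of 11 fatty acid synthesis genes 0 were DE by edgeR and 0 by DESeq2, with 10 at an unadjusted p under 0.05 and 1 called without tumor 1. Of 14 targets of the antioxidant regulator Nrf2 3 were lower and 1 higher. Txnrd1, thioredoxin reductase, fell from 424, 433 and 427 CPM to 196, 178, 163 and 173 CPM. Hmox1, which breaks down heme, had 314, 316 and 302 CPM in culture and 253, 125, 102 and 76.1 CPM in the tumors, so tumor 1 was nearer the cultures than the others, and the call was lost without tumor 4. Among heat shock genes, 3 of 12 were higher (5 called without tumor 1), including Hspa1b at 2.56, 2.32 and 3.11 CPM and 31, 23.2, 18.6 and 32.2 CPM, whose reads may be shared with its near-identical neighbour Hspa1a.

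Secreted factors moved in both directions. Of 22 tested growth factor and cytokine genes (25 listed) 9 were higher and 5 lower, and 7 were called with limma on log2(FPKM + 1). Csf1, the macrophage growth factor, was highly expressed in culture at 564, 576 and 564 CPM and fell to 268, 288, 243 and 229 CPM in the tumors (log2 fold change -1.15 ± 0.08, edgeR adjusted p = 7.7e-06), while its receptor Csf1r rose as given above. Areg, a ligand of the epidermal growth factor receptor, fell from 48.4, 49 and 48.4 CPM to 8.63, 4.98, 11.8 and 8.36 CPM and the cytokine gene Lif from 46.1, 46.1 and 49.9 CPM to 25.2, 21.1, 21.8 and 23.8 CPM. Il1b, an inflammatory cytokine, had 0.0465, 0 and 0 CPM in culture and 9.7, 12.6, 24.2 and 12.9 CPM in the tumors, and Pdgfb, which recruits pericytes, 0.139, 0 and 0.0829 CPM and 8.92, 13.1, 20.003 and 22.3 CPM. Of 16 tested TGF-beta and BMP genes (18 listed) 11 were higher (median 1.20), or 6 with limma on log2(FPKM + 1). The matrix protein gene Ccn2, a TGF-beta target, rose from 28.9, 31.1 and 30.4 CPM to 124, 94, 70.7 and 263 CPM and was highest in tumor 4. Of 18 immediate early genes 5 were higher and 2 lower. Fos rose from 2.6, 1.89 and 2.32 CPM to 34.8, 19, 27.4 and 28.9 CPM, Egr1 fell from 600.2, 603 and 585 CPM to 303, 209.9, 289.7 and 279.6 CPM, and Atf3, a stress-induced repressor, rose from 0.093, 0.145 and 0.249 CPM to 12.9, 18, 6.54 and 14.1 CPM. Fosb was far higher in tumor 4 than in any other library, with 21.8, 10.4, 15 and 256 CPM in the tumors, and was not DE.

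Of 10 tested genes of epithelial and mesenchymal state (16 listed) 4 were higher and 1 lower, and of 5 tested feedback genes of the Wnt pathway (12 listed) 2 were higher, against 4 called by DESeq2 and 0 with limma on log2(FPKM + 1). By abundance per length, the largest gains included genes of the cytoskeleton. S100a4, which marks motile and mesenchymal cells, had 835 ± 7.21 FPKM in the cultures and 4139.5 ± 881 FPKM in the tumors (SD), the largest rise in mean FPKM among the DE genes, and its log2 fold change was 2.31 ± 0.16 (edgeR adjusted p = 7.3e-06). Vim, the intermediate filament of mesenchymal cells, had 1022 ± 57 FPKM in the cultures and 2817 ± 139.8 FPKM in the tumors, with 2143, 2407 and 2164 CPM in the cultures and 6763, 6251, 5816 and 5918 CPM in the tumors. Tmsb4x, which binds actin monomers, had 308 ± 10.9 FPKM in the cultures and 1289 ± 162 FPKM in the tumors. Ptma, a small nuclear protein of dividing cells, had 486 ± 3.0 FPKM in the cultures and 1413 ± 114 FPKM in the tumors and Tuba1b, an alpha tubulin, 706 ± 11 FPKM in the cultures and 1511 ± 151 FPKM in the tumors. Ifitm3, which blocks viral entry and is induced by interferon, had 179 ± 1.16 FPKM in the cultures and 1053 ± 258 FPKM in the tumors. Of the genes with at least 10 CPM in culture, the largest log2 rise was that of Apoe, the lipid carrier of macrophages, at 5.26 ± 0.32, from 13.2, 11.1 and 10.4 CPM to 270.0, 383, 615 and 504 CPM. It was followed by Cd74 and by genes of the interferon response described above (Gbp7, Igtp, Psmb8, Psmb10, Oasl2 and Irf7), whose log2 fold changes ran from 3.87 for Irf7 to 4.79 for Gbp7.

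**Figure D4:**
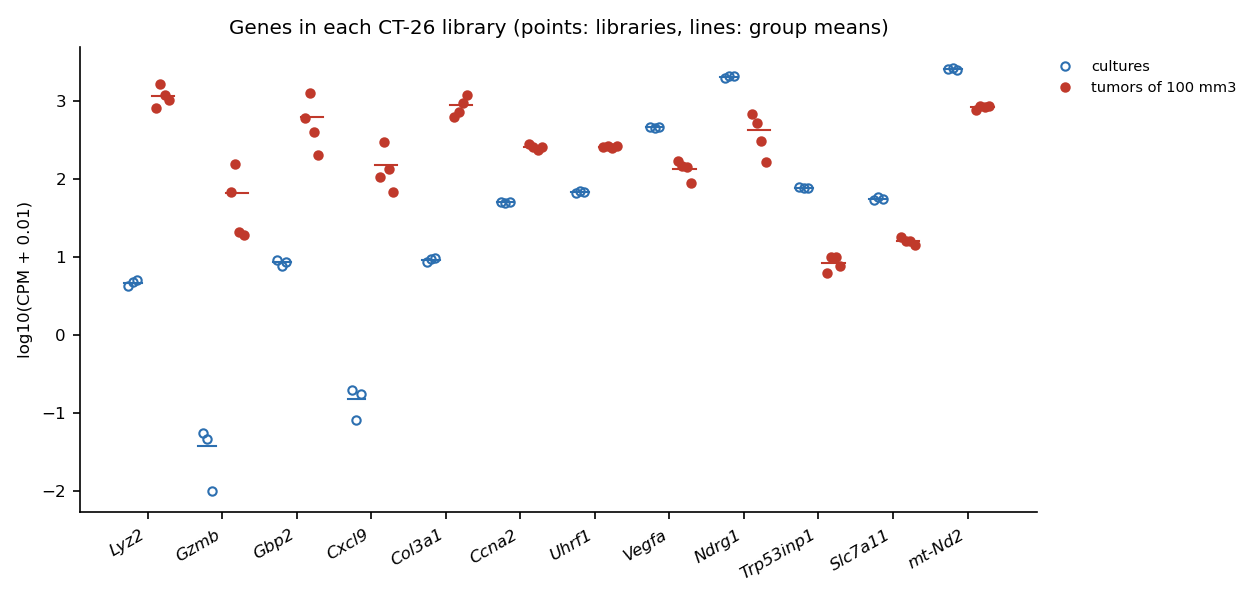
Level of 12 genes as log10(CPM + 0.01) in each of the 3 CT-26 cultures and 4 CT-26 tumors, with a line at each group's mean. Lyz2 and Gzmb lie far lower in culture than in the tumors, Ccna2 and Uhrf1 are higher in all tumors, and Vegfa, Ndrg1, Trp53inp1, Slc7a11 and mt-Nd2 are lower in all tumors.

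A small set of genes that CT-26 cells expressed in culture was almost lost in the tumors. Otog, which encodes otogelin, a matrix glycoprotein of the inner ear, had 65.5, 60.7 and 61.2 CPM in the cultures and 0, 0.134, 0.154 and 0.0341 CPM in the tumors, a log2 fold change of -9.49 ± 0.28 (edgeR adjusted p = 2.6e-07). The tumors together held only 9 counts of Otog, so this SE may be too small. Sspo, another large secreted glycoprotein, fell from 47.9, 41 and 44.7 CPM to 0.164, 0.267, 0.769 and 0.443 CPM, the receptor phosphatase gene Ptprt from 31.4, 30.8 and 29.5 CPM to 0.164, 0.201, 0.385 and 0.375 CPM and the secreted phospholipase gene Pla2g2e from 33.7, 33.8 and 34.3 CPM to 0.493, 0.167, 0.654 and 0.648 CPM. In none of these did any tumor come near a culture. Slc6a12, a transporter of betaine and GABA, had 9.39, 10.6 and 10.1 CPM in the cultures and 0, 0, 0.0385 and 0.0341 CPM in the tumors, and the ratio of culture to tumor was 552-fold (exact 95% interval 152 to 4562). The other genes with falls of this size were Dthd1 (-8.10), Acox2, of bile acid and branched lipid oxidation (-7.63), Prr32 (-6.75), 4930438A08Rik (-6.21) and Mamdc2 (-6.11), given as log2 fold changes.

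The same comparison in Colon 26 shared no library with that of CT-26. There, 3321 of 15946 tested genes were DE and higher in tumors (20.8%) and 975 were DE and lower (6.11%). Of the genes higher in CT-26 tumors 65.7% were also higher in Colon 26 tumors, and of those higher in Colon 26 67.4% were also higher in CT-26. For the lower genes the shares were 33.2% of the CT-26 set and 52.6% of the Colon 26 set. In these shares a gene not tested in the other model counts as not shared. Of the CT-26 sets, 3274 higher and 1333 lower genes were tested in Colon 26. The base shares of 20.8% and 6.11% also differ, so these overlaps do not show which direction was shared more. A total of 44 genes were higher in CT-26 and lower in Colon 26, and 47 were the reverse. An interaction term tested whether the change itself differed between the models. Of 16501 genes, 1536 had a more positive change in CT-26 (9.31%) and 1368 a more negative one (8.29%) at the same thresholds.

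The models parted in proliferation and interferon genes. Of 24 mitosis genes 23 had a more positive change in CT-26, and the median in Colon 26 was -0.02. Ccna2 changed by 0.30 ± 0.03 in Colon 26, and the difference of 2.12 ± 0.07 (SE) had an edgeR adjusted p of 3.5e-10. Of the DNA replication genes 15 of 24 differed in the same direction. Of 22 interferon-stimulated genes 18 rose more in CT-26, although 11 were DE and higher in Colon 26 too. Ifit1, for example, which binds foreign RNA, changed by 3.44 ± 0.35 in CT-26 and -0.54 ± 0.14 in Colon 26, a difference of 4.03 ± 0.39 (edgeR adjusted p = 2.2e-06). Gbp2, which responds to interferon gamma, rose in both, and its difference of 1.78 ± 1.02 did not pass (edgeR adjusted p = 0.18). Macrophage genes went the opposite way, with 8 of 15 rising less in CT-26, among them Cd68 (difference -4.19 ± 0.28, edgeR adjusted p = 8.4e-08) and Lyz2 (-1.08 ± 0.31, edgeR adjusted p = 0.011). Mean Cd68 was 61.0 CPM in CT-26 cultures and 3.95 CPM in Colon 26 cultures, and 94.3 and 110.6 CPM in the tumors. Its difference therefore lay mostly in the cultures. Mean Lyz2 was 4.68 and 3.63 CPM in the cultures and 1153 and 1871 CPM in the tumors, in the same order. Whether tumor levels differed between the models was not tested. Several of the other macrophage genes were at or near 0 in the Colon 26 cultures, where the size of a fitted difference depends on the prior count.

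**Figure D5:**
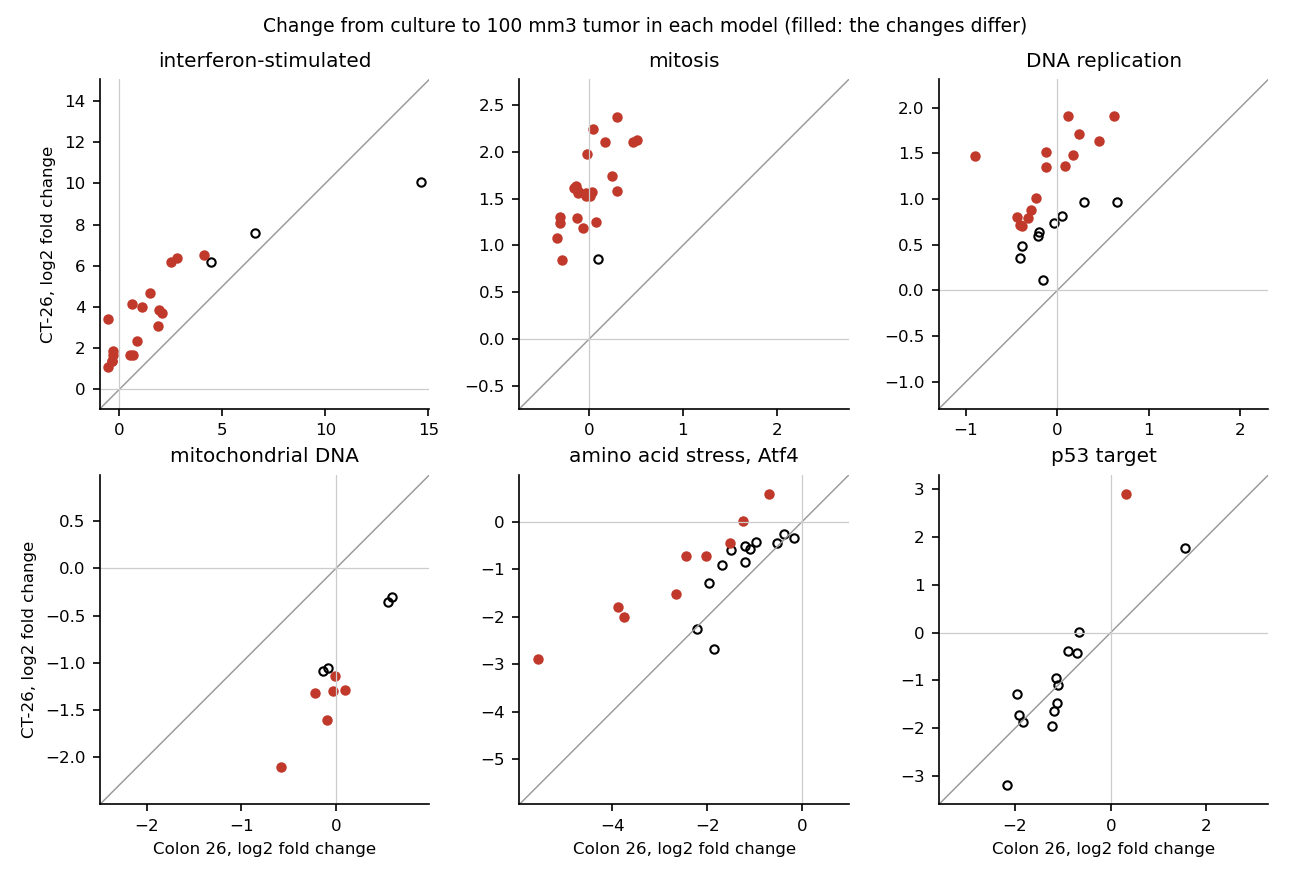
Log2 fold changes, tumor of 100 mm3 over culture, of the members of 6 gene lists in Colon 26 (x axis) and CT-26 (y axis), with filled points where the interaction was called. Mitosis and DNA replication genes lie above the diagonal near 0 in Colon 26, p53 targets lie along it, Atf4 targets are mostly lower in Colon 26, and mitochondrial DNA genes are lower in CT-26 and near 0 in Colon 26.

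Falls were shared for some lists and not for others. The list of p53 targets had 10 of 15 tested genes lower in Colon 26, with medians of -1.19 in CT-26 and -1.15 in Colon 26, and the interaction was called in 1 of 14, Fas. The amino acid stress genes fell further in Colon 26, where 16 of 21 were DE and lower (median -1.51), and 9 had a less negative change in CT-26. Slc7a11 changed by -3.88 ± 0.18 there, a difference of 2.14 ± 0.22 (edgeR adjusted p = 4.3e-06), while Chac1 changed by -2.22 ± 0.12 and its difference was 0.02 ± 0.22 (edgeR adjusted p = 0.98). Mitochondrial DNA genes had a median of -0.08 in Colon 26, and 7 of 11 had a more negative change in CT-26. Mean mt-Co1 was 12490.5 CPM in CT-26 cultures and 5383.5 CPM in Colon 26 cultures, and 5990 and 4866 CPM in the tumors. Mean mt-Nd2 was 2528 and 1430 CPM in the cultures and 831 and 1280 CPM in the tumors, in the same order. The cultures of the models thus also differed in both genes, and a difference between the tumors was not tested. Ndrg1 changed by 0.31 ± 0.12 in Colon 26 (difference -2.54 ± 0.47, edgeR adjusted p = 5.4e-04). Vwf rose by 3.11 ± 0.25 in Colon 26, and its difference of -7.24 ± 0.55 was the largest among the endothelial genes (edgeR adjusted p = 2.4e-07). Timp3 rose by 4.59 ± 0.18 in CT-26 and changed by -0.48 ± 0.13 in Colon 26 (difference 5.12 ± 0.24, edgeR adjusted p = 5.1e-09).

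Tumors of CT-26 taken at about 400 mm3 and 800 mm3 were set against the same 3 cultures, so these values share their controls with those above and are given side by side only. The values at 100 mm3 are from the fit of 7 libraries, and those at 400 and 800 mm3 from 1 fit of all 30 libraries. Small differences between sizes may come from the change of fit. The log2 fold changes at 100, 400 and 800 mm3 were 7.94, 7.19 and 7.79 for Lyz2 and 6.56, 6.30 and 6.02 for Col3a1. Gbp2 had 6.17, 5.93 and 5.10. For Ccna2 the values were 2.37, 2.22 and 2.26. Among the genes that fell, Slc7a11 had -1.79, -1.08 and -1.37, Trp53inp1 -3.19, -3.30 and -3.25, Vegfa -1.75, -0.93 and -1.62, and mt-Nd2 -1.61, -1.78 and -1.59.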

How the data were processed

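RNA-seq libraries of CT-26 cultures (n = 3) and CT-26 tumors of 100 mm3 (n = 4) were analysed, with Colon 26 cultures (n = 3) and tumors (n = 4) as a second pair. The authors quantified genes with Array Studio 10.0.1.118 on Ensembl release 78 and deposited a table of estimated counts and a table of FPKM values. Of the nonzero deposited counts 23.0% were not whole, so the estimated counts were rounded. The runs of a library were combined by the authors. The aligner, genome build and strand setting are not given in the sources used here, and the authors tested with DESeq2 1.24.0. Gene positions and symbols came from GENCODE vM21 on GRCm38, which held 97.7% of the gene IDs (52207 of 53431).

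Counts were tested with edgeR 4.0.16 (TMM normalization, filterByExpr, quasi-likelihood F-test, Benjamini-Hochberg adjustment) on the 7 libraries of the comparison, on the 7 of Colon 26, and on all 14 for the interaction. Genes were called at an adjusted p of at most 0.1 and a log2 fold change of at least 1 in size, the thresholds of the study. CPM were computed on TMM-normalized library sizes. The SE given with a log2 fold change was not taken from the fit directly. It is the size of the change divided by the square root of the F statistic of the edgeR test. For genes with few counts in a group this SE may be too small. FPKM values were used as deposited for levels per length, and in limma 3.58.1 on log2(FPKM + 0.1) and log2(FPKM + 1) for genes with a mean FPKM of at least 0.1. Genes with no count in a group were given a bound from 3 counts per library, and genes with 1 to 3 counts a ratio with an exact 95% interval. Depth was 21384730 to 30584263 counts per library. The scripts were tested on simulated data. Alternatives were DESeq2 1.42.0, other normalizations, filters, thresholds and units, 1 fit of all libraries, and leaving out each library. R 4.3.3, Python 3.11.15, numpy 2.4.6, pandas 2.3.3 and scipy 1.17.1 were used.

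The 46 gene lists and the comparison were chosen with earlier results of these data known. The genes named were the 10 DE genes with the largest rise in mean FPKM, the 8 with the largest log2 rise and the 10 with the largest log2 fall among genes of at least 10 CPM in culture, the 6 with the largest fall in mean FPKM, up to 4 members of each list (the 2 of highest mean FPKM and those of highest and lowest log2 fold change) and the first gene of each cell type list. Other members of the lists were named after their values were seen. Promoters were matched by symbol, and since only 2333 of 3406 higher, 999 of 1546 lower and 10867 of 15370 tested genes had one, motif shares over called genes are void and not given. Some genes that met the rule are not reported here.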

Additional observations from a re-analysis of the deposited data

Results flagged for a closer look

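For 66 genes named above the change from culture to a tumor of 100 mm3 differed between CT-26 and Colon 26 by the interaction term of edgeR (adjusted p of at most 0.1 and a difference of at least 1), and the values below are the change in CT-26 minus that in Colon 26 in log2 units. In cell cycle genes the change was more positive in CT-26 by 2.12 in Ccna2, 2.24 in Cdc20, 1.84 in Mcm5, 1.82 in Top2a, 1.54 in Mki67, 1.34 in Uhrf1 and 1.18 in Tpx2, and by 1.15 in Impdh2 and 1.30 in Ptma. Interferon-stimulated genes differed in the same direction, by 4.03 in Ifit1, 3.24 in Ifit3, 2.93 in Oasl2, 2.26 in Ifitm3, 2.24 in Isg15, 2.12 in Gbp7, 2.04 in Igtp, 2.01 in Irf7 and 1.65 in Oas1a. So did genes of the class I pathway, by 2.54 in Psmb8, 1.83 in Psmb9, 1.44 in Tapbp and 1.20 in Psmb10. The difference was 2.14 in Slc7a11, 1.78 in Trib3 and 1.31 in Psat1, genes of the amino acid stress list. Among secreted factors, complement and others it was 6.77 in Atf3, 5.12 in Timp3, 4.28 in Fabp4, 4.08 in Ccl2, 3.71 in C3, 3.53 in Batf3, 3.36 in Mmp3, 2.62 in Fas, 2.33 in C1s1, 2.26 in Vsir, 2.05 in Ighm, 1.28 in Col1a1 and 1.18 in Lif.

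The change was more negative in CT-26 in genes of macrophages and antigen presentation, with differences of -6.31 in Cd74, -4.19 in Cd68, -4.08 in C1qa, -3.62 in Csf1r, -1.62 in Apoe and -1.08 in Lyz2. The same direction was seen in the checkpoint gene Havcr2 (-4.50), which CT-26 cultures expressed, and the regulatory T cell gene Foxp3 (-3.78). In stroma and vessels it was -7.24 in Vwf, -4.07 in Dcn, -3.83 in Ccn2, -3.72 in Des, -1.87 in Mmp11 and -1.84 in Col3a1. Genes that CT-26 cultures expressed and CT-26 tumors nearly lacked differed by -8.50 in Slc6a12, -4.55 in Otog, -3.61 in Pla2g2e, -3.40 in Ptprt, -3.35 in Acox2, -2.51 in Mamdc2 and -2.43 in Sspo. These genes were named for their large falls in CT-26, so a more negative change there follows in part from the choice. Their mean levels in Colon 26 cultures ran from 0.043 CPM in Slc6a12 to 6.09 CPM in Mamdc2, which left less room for a fall. In mitochondrial and stress genes the difference was -1.46 in mt-Nd5, -1.46 in mt-Nd2, -1.54 in Gm10222, -2.54 in Ndrg1, -2.53 in Hspa1b and -2.17 in Hmox1, and in the actin-binding gene Tmsb4x it was -1.94. In Acox2, Atf3, Batf3, C1qa, Ccl2, Cd74, Csf1r, Dcn, Fabp4, Foxp3, Ighm, Otog, Pla2g2e, Ptprt, Slc6a12 and Sspo at least 1 of the 4 groups was at or near 0, and the size of the fitted difference there depends on the prior count. Some of the differences lay mostly in the cultures, as in Cd68. Mean Cd74 was 15.9 CPM in CT-26 cultures and 0.252 CPM in Colon 26 cultures, and 496 and 631 CPM in the tumors. Mean Tmsb4x was 236 and 65.2 CPM in the cultures and 993 and 1042 CPM in the tumors, in the same order. In Lyz2 the tumors were further apart than the cultures.

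In 12 genes and 5 list scores the gap between 1 of the 4 CT-26 tumors and its nearest neighbour exceeded Dixon's 95% critical value for the range of the group. Chance alone gives this in about 1 in 20 groups. With 138 genes named in the text and 46 lists, several such gaps are expected by chance, so the cases below are descriptions only. Tumor 1 stood apart with 2768 CPM of S100a4, 163 CPM of Krt20, 94.2 CPM of Sel1l, 117 CPM of Gm10222 and 89.7 CPM of Dcn. Tumor 2 stood apart with 190.1 CPM of Ptprc, 486 CPM of C1qa, 20.7 CPM of Csf3r and 32.8 CPM of Havcr2, and its score of all leukocyte genes was 6.59. The B and plasma cell score of tumor 1 was lower than in the other tumors (-1.79). Tumor 3 had 22.9 CPM of Mmp11, 0.692 CPM of Prr32 and a matrix protease score of 4.11. Tumor 4 had 256 CPM of Fosb, an adipocyte score of 1.998 and a colon epithelium score of -0.34.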

How the results depend on the processing

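The counts of genes moved with the thresholds and the unit. With limma on log2(FPKM + 1) 1847 genes were higher and 804 lower in CT-26 tumors, with no minimum fold change 6264 and 5337, and with a log2 fold change of at least 2 in size 2198 and 440. With no filter on low counts 2388 genes were lower. The number of genes whose change differed between the models was 2904, or 8421 with no minimum fold change and 1269 with a log2 difference of at least 2. The share of tumor counts on genes near silent in culture was 0.735%, or 1.52% for genes of at most 10 counts in every culture and 1.43% for genes with a mean FPKM under 0.1 in culture. Leaving out 1 library at a time gave 3083 to 3655 higher and 1532 to 1650 lower genes, 2761 to 2985 genes with a called difference between the models, and shares of 0.646% to 0.878%. DESeq2, RLE normalization, library size only, 1 fit of all 30 libraries, a mean count of at least 10 and an adjusted p of at most 0.05 kept the counts of genes within 1.5 times, as did limma on log2(FPKM + 0.1) for the higher and lower genes, the counts it was run for. Of the list counts under all alternatives 660 stayed within 1.5 times and 30 did not, 12 of these with limma on log2(FPKM + 1), and 132 list medians moved by more than the spread between replicates. The median of the adipocyte genes turned to -0.30 without tumor 2, -0.15 without tumor 3 and -0.13 without tumor 4 and ranged up to 7.31 with 1 library left out, and that of the immediate early genes turned to -0.11 without tumor 4 and ranged up to 0.49. Over the genes named in the text and all alternatives, 2033 calls were kept, 24 were lost and 7 gained, and no called fold change turned sign. The fold changes of Bnip3, Fosb, Havcr2, Krt10 and Psat1, which were not called, crossed 0. Calls lost with a library left out were those of Car9, Des, Ero1l, H2-D1, Hmox1, Hspa5, Impdh2 and Oas1a. Those of Cd4, Foxp3 and Lif were lost with limma on log2(FPKM + 1), those of Car9, Des and Oas1a with both limma fits, and that of Des with all libraries in 1 fit. Cdkn1a and Pdgfra passed without tumor 1, and Fosb with all libraries in 1 fit, with no filter and without tumor 1, 2 or 3. The cause of these changes was not tested. No paired analysis was possible because the labels carry no replicate numbers. Shares of promoters with a motif among genes called by DESeq2, or before the start site only, were not reported, since too few of those genes had a promoter.

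The limits are few libraries, 3 cultures and 4 tumors, and bulk RNA, in which cancer cells and host cells are summed. At 3 against 4 the smallest p of an exact permutation test is 0.0571, so single values were tested only in the fit across genes. No label names a batch. Genes at a few counts in culture have folds that depend on the prior count, and bounds and counting intervals cover counting error only. Reads of near-identical genes could not be separated.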
